A study of Mus musculus with 14 samples.

Results

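Bcl2 family genes and the p53 gene decide whether a cell dies through its mitochondria, and their messenger RNA was followed in primordial germ cells, the cells of the mouse embryo that later give rise to eggs and sperm. The genes were Pmaip1 (which encodes Noxa), Bbc3 (Puma), Bcl2l11 (Bim), Bid, Bax, Bak1, Bcl2, Bcl2l1 (Bcl-xL), Mcl1 and Trp53. A gene was measured where the platform annotation gave a probe set its symbol and no other. This held for 8 of the 10 genes, through 27 of the 45101 probe sets of the array, and these 8 stood among 18194 measured genes. Bax and Trp53 were not analysed here, because no probe set carried either symbol alone. Pmaip1 was chosen by its rise in XY germ cells in these same arrays. Its values in both sexes at E12.5 and E13.5 are therefore given as a description without a test.

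The 14 arrays formed 7 groups of 2 biological replicates: unsexed cells at embryonic day (E) 9.5, E10.5 and E11.5, males and females at E12.5, and males and females at E13.5. Per the labels, cells from E10.5 to E13.5 were from embryos of BDF1 females crossed with males carrying a stella-EGFP transgene, on a mixed B6 and CBA background. Those cells were sorted by EGFP fluorescence after trypsin digestion of genital ridges, and their cDNA was amplified by 12 PCR cycles. No strain entry was used for replicate 1 of either sex at E12.5. The E9.5 cells were C57BL/6, from an earlier study, with another RNA kit and 22 PCR cycles, so the stage cannot be told apart from these at E9.5. The sources used here describe no sorting step at E9.5. They also do not give how many embryos entered an array, so p-values measure the spread between these arrays only.

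The intrinsic route to apoptosis is a balance within one protein family. Pro-survival members such as Bcl2, Bcl-xL and Mcl1 hold the pore-forming effectors Bax and Bak in check at the mitochondrial outer membrane. BH3-only members, among them Noxa, Puma, Bim and Bid, bind the pro-survival members or the effectors and tip the balance towards pore formation, cytochrome c release and caspase activity. Noxa binds mainly Mcl1 and promotes its loss, and p53 is a known activator of the Noxa and Puma genes. In the mouse, primordial germ cells depend on Bcl-xL for survival and are removed through Bax when survival signals fail.

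Values were log2 probe set signals. Array medians lay between 4.66 and 4.80, and levels below 4.72, the median of the table, are called dim. Across genes, the 2 replicates of a group had a correlation of 0.951 to 0.971. The germ cell marker Dppa3, the gene that the stella reporter reports, lay between 13.09 and 13.76 on all 14 arrays, and Pou5f1 between 12.44 and 13.09. RNA integrity can be read from Gapdh, as the signal of its 3′ probe set minus that of its 5′ probe set. This Gapdh difference was 3.16 on the second E13.5 male array and 3.09 on the second E13.5 female array, against 0.21 to 2.53 on the other 12 arrays. The same difference for beta-actin did not set these 2 arrays apart, with 2.94 and 3.09 against 2.18 to 3.39 on the others. A fit without both arrays has no replicate of either sex at E13.5, so RNA quality and lost replication cannot be told apart there. In bulk samples, fewer cells of a type and less RNA per cell cannot be told apart. The number of arrays limited the precision.

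Pmaip1 had 1 probe set, 1418203_at. Its log2 signals were 10.02 and 10.38 in E12.5 males, against 6.45 and 6.25 in E12.5 females. In E13.5 males they were 11.52 and 11.83, against 6.13 and 5.19 in E13.5 females. All 4 male arrays lay above all 10 other arrays. Male signals exceeded female signals by 3.85 on the log2 scale at E12.5 (14.4-fold) and by 6.01 at E13.5 (64.7-fold). The male groups averaged 10.20 ± 0.25 at E12.5 and 11.68 ± 0.22 at E13.5, and the female groups 6.35 ± 0.14 and 5.66 ± 0.66 (SD, n = 2 each). Without both arrays of high Gapdh difference the E13.5 difference was 5.39, and leaving out each compared E13.5 array in turn gave 5.54 to 6.48.

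**Figure D1:**
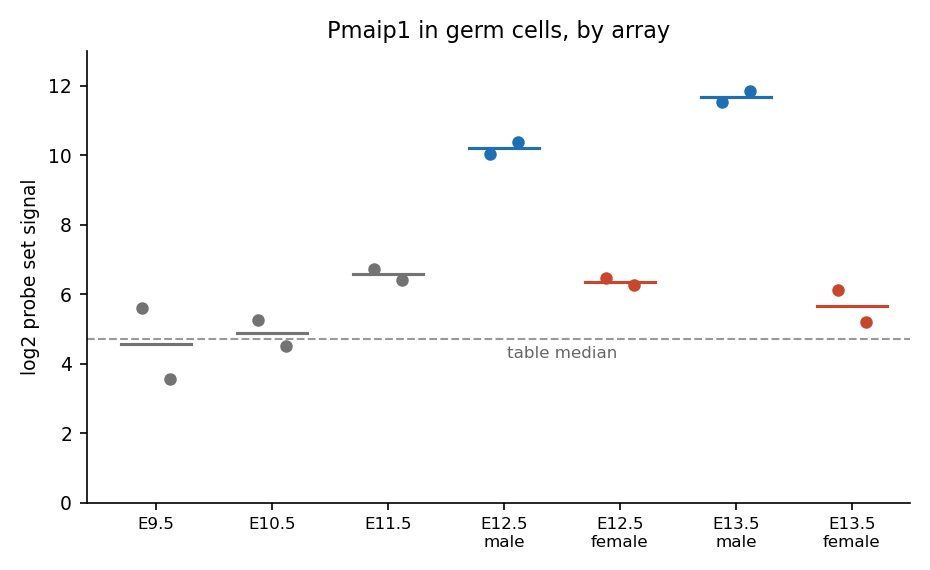
Log2 signal of the Pmaip1 probe set on each of the 14 arrays, by group. Points are arrays, bars are group means, and the dashed line is the table median of 4.72. Blue marks males, red marks females and grey marks unsexed cells. The 4 male arrays sit at 10.02 or above, and the other 10 arrays at 6.72 or below.

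In the unsexed groups Pmaip1 lay closer to the table median. Its signals were 5.59 and 3.56 at E9.5, 5.27 and 4.50 at E10.5, and 6.72 and 6.41 at E11.5. Both E11.5 arrays lay above both E10.5 arrays, a difference of 1.68 on the log2 scale (SE 0.35, unadjusted p = 0.000573 by limma). After Benjamini-Hochberg adjustment over 18194 genes this difference did not pass the threshold of 0.05 (limma, adjusted p = 0.136). At E10.5 against E9.5 the difference was 0.31 (limma, adjusted p = 0.808), and the 2 E9.5 arrays lay on either side of both E10.5 arrays.

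In females the later steps are given without a test, because female arrays entered the sex difference by which Pmaip1 was chosen. The difference between E12.5 females and E11.5 was −0.22. Between E13.5 and E12.5 females it was −0.69. In males the same steps were 3.63 and 1.48 on the log2 scale, given without a test. The E11.5 arrays served as the earlier stage for both sexes. Ordered by level, E13.5 males came first, then E12.5 males, E11.5, E12.5 females, E13.5 females, E10.5 and E9.5. The arrays of neighbours in that order overlapped for E11.5 with E12.5 females, for E13.5 females with E10.5 and for E10.5 with E9.5.

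Male supporting cells are the somatic cells that enclose germ cells in the fetal testis, and some of their markers moved with Pmaip1. The mean log2 level of 8 male supporting cell markers was 5.44 to 5.78 in E12.5 males, against 4.50 to 4.81 in E12.5 females, and 5.70 to 6.22 in E13.5 males, against 4.37 to 5.20 in E13.5 females. At each age 2 of the 8 markers passed, both of them higher in males. Cst9 was higher by 4.89 at E12.5 (limma, adjusted p = 0.00679) and by 6.44 at E13.5 (limma, adjusted p = 0.00041). Ptgds was higher by 1.91 at E12.5 (limma, adjusted p = 0.0405) and by 3.41 at E13.5 (limma, adjusted p = 0.000535). Sox9, the transcription factor that defines these cells, was dim on all 14 arrays, at 2.05 to 4.23. Amh, a hormone gene of the same cells, lay between 5.67 and 6.24 on all 14 arrays, with a male minus female difference of −0.10 at E12.5 (limma, adjusted p = 0.944) and 0.08 at E13.5 (limma, adjusted p = 0.92). Mro was at 0 on 2 arrays. The male minus female differences of Inha, Mro, Sox9, Dhh and Aard were 0.83, 0.34, 0.335, 0.145 and −0.715 at E12.5. At E13.5 they were −0.05, −0.325, −0.525, 0.785 and −0.39, in the same order, and none of these passed (limma). The part of supporting cells in the Pmaip1 values was not tested.

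The genes whose values followed Pmaip1 most closely were ranked by Pearson correlation over the 12 arrays of E10.5 and later, among 1541 genes whose group means spanned at least 2 log2 units. They were Ptgds (r = 0.976), Dgka (r = 0.975), Krt222 (r = 0.975), Cst9 (r = 0.970) and Gpc4 (r = 0.965). The arrays share groups, so these correlations describe a common group pattern and carry no p. Dgka, a diacylglycerol kinase, had 9.14 and 9.80 in E12.5 males, against 7.27 and 7.54 in E12.5 females, and 10.96 and 11.02 in E13.5 males, against 7.74 and 7.04 in E13.5 females. Gpc4, a cell surface heparan sulphate proteoglycan, had 8.19 and 7.98 in E13.5 males, against 6.40 and 5.61 in E13.5 females. In each of these genes both male arrays lay above both female arrays at both ages, a pattern that the ranking by likeness to Pmaip1 selects for. Ptgds and Cst9 are also on the list of male supporting cell markers above.

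**Figure D2:**
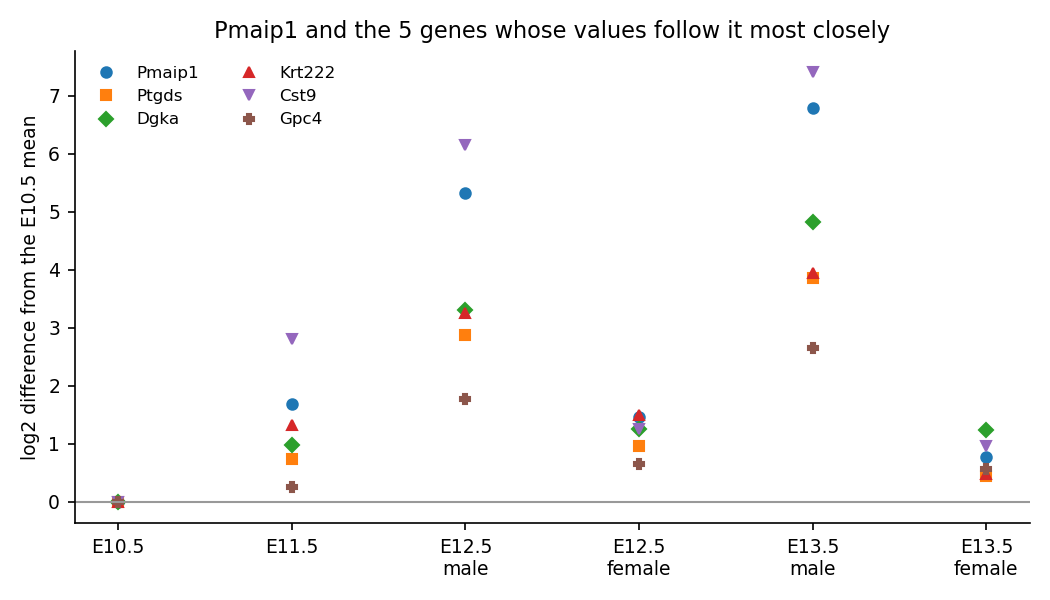
Group means of Pmaip1 and of the 5 genes most like it, as log2 differences from each gene's own E10.5 mean (vertical axis), in the 6 groups from E10.5 to E13.5 (horizontal axis). In all 6 genes both male groups stand highest, with E13.5 males above E12.5 males. The 5 genes were picked by their likeness to Pmaip1, which selects for this pattern.

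None of the other 7 measured genes had a spread like that of Pmaip1 between E10.5 and E13.5. The range of the 6 group means was 6.79 on the log2 scale for Pmaip1. It was 1.09 for Bcl2l11, 0.92 for Bid, 0.67 for Bcl2, 0.55 for Bbc3, 0.55 for Bcl2l1, 0.49 for Bak1 and 0.44 for Mcl1. The median over all 18194 genes was 0.945 and the 95th percentile 2.63, so the ranges of 6 of the 7 were below that of the median gene. Each gene was read from its probe set with the highest mean, and genes were not matched for level. On the Bid probe sets 1447873_x_at and 1448560_at the range was 1.40 and 1.59. Among these 7 genes, 0 passed at E12.5 in males against females (limma with Benjamini-Hochberg adjustment, and 0 at an unadjusted p under 0.05), where 2.39% of all genes passed. At E13.5, where 10.2% of all genes passed, 1 of the 7 passed, namely Bid. The 7 differences ran from −0.34 to 0.37 at E12.5 and from −0.68 to 0.25 at E13.5, and their 95% intervals lay within −1.07 to 1.28 at E12.5 and within −1.11 to 1.06 at E13.5.

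**Figure D3:**
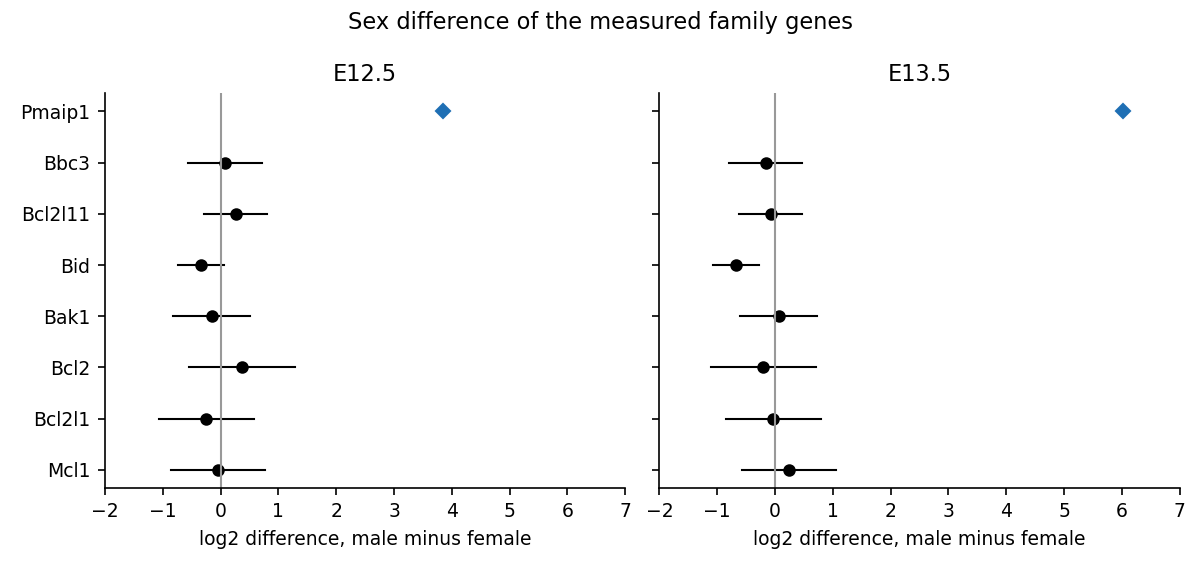
Difference between males and females, in log2 units, of the 8 measured genes at E12.5 (left) and E13.5 (right). Points are differences of group means with 95% intervals from limma, and the diamonds for Pmaip1 are drawn without an interval because the gene was chosen by its rise in males. Pmaip1 stands at 3.85 and 6.01, and the interval of Bid at E13.5, from −1.07 to −0.28, is the only one clear of 0.

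Among the measured BH3-only genes other than Pmaip1, Bid was the one that passed between the sexes at E13.5. Bid protein links death receptors to mitochondria once caspase-8 has cut it. On probe set 1417045_at its signals were 10.44 and 10.28 in E13.5 males, against 11.20 and 10.87 in E13.5 females. Both male arrays lay below both female arrays. The log2 difference of −0.68 (SE 0.18, 95% interval −1.07 to −0.28) passed the test (limma, adjusted p = 0.0377). All 4 arrays were well above the table median. The call was lost without E13.5 male replicate 1 (adjusted p = 0.107), without E13.5 male replicate 2 (adjusted p = 0.204), without E13.5 female replicate 1 (adjusted p = 0.232) and without both arrays of high Gapdh difference (−0.76, adjusted p = 0.176), all by limma. Over 14 alternatives the difference stayed between −0.84 and −0.51, and 5 of them kept the call, with adjusted p from 0.0297 to 0.232 in limma. Besides those named, the call was lost with median centring, with the mean of its probe sets, with every probe set tested, without the intensity trend and with the compared arrays only. Of 6 markers of female supporting cells, Irx3, Bmp2 and Wnt4 were lower in E13.5 males, by log2 differences of −4.11, −1.51 and −0.96 (limma, adjusted p = 0.000964, 0.0305 and 0.0432). The other 3 did not pass, and Rspo1 (1.14, limma, adjusted p = 0.155) and Fst (0.78, limma, adjusted p = 0.298) had differences of the opposite sign, while that of Foxl2 was −0.12. The mean log2 level of the 6 was 5.27 to 5.74 in E13.5 males, against 6.29 to 6.31 in E13.5 females. The part of these cells in the Bid difference was not tested.

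At E12.5 Bid had 10.77 and 10.82 in males, against 11.14 and 11.14 in females. The male arrays were again the lower ones, but the difference of −0.34 did not pass (limma, adjusted p = 0.488). The change of the sex difference between E12.5 and E13.5 was −0.33 and did not pass either (limma, adjusted p = 0.916). At that test 0.0110% of all genes passed, and none of the 7 did (0 also at an unadjusted p under 0.05). In the earlier groups Bid had 10.43 and 10.76 at E9.5, 11.15 and 11.34 at E10.5, and 11.12 and 11.44 at E11.5, so the E10.5 and E11.5 arrays overlapped and the E9.5 arrays lay below them. The difference of E10.5 from E9.5 was 0.65 (limma, unadjusted p = 0.00482, adjusted p = 0.155).

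The other probe sets of Bid can be read beside the first. On 1447873_x_at the signals were 5.86 and 5.92 in E13.5 males, against 6.57 and 6.55 in E13.5 females. On 1448560_at they were 6.90 and 5.76 in E13.5 males, against 7.82 and 6.07 in E13.5 females. The male arrays were lower on the first of these and overlapped the female arrays on the second. At E12.5 both probe sets had their male arrays below their female arrays, with 6.34 and 6.58 against 6.88 and 6.74, and with 7.16 and 7.51 against 7.86 and 7.82. Over 14 arrays they correlated with 1417045_at at r = 0.82 and r = 0.68. When all single-symbol probe sets were tested separately, no probe set of the 7 genes other than Pmaip1 passed in any of the 9 comparisons, and Bid on 1417045_at at E13.5 had a limma adjusted p = 0.0554.

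**Figure D4:**
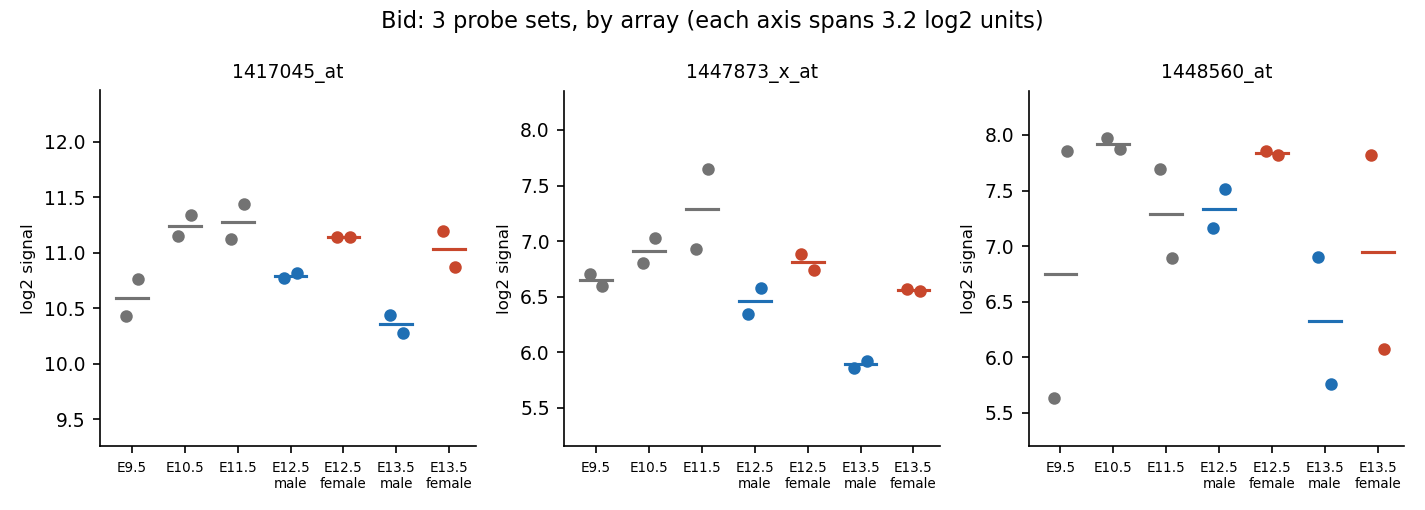
Log2 signals of the 3 Bid probe sets on each of the 14 arrays, by group. Points are arrays and bars are group means, with males in blue, females in red and unsexed cells in grey. On the left and middle panels both E13.5 male arrays sit below both E13.5 female arrays, while on the right panel they overlap.

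Bcl2l11 encodes Bim, a BH3-only protein that binds all the main pro-survival members. Its signals on 1426334_a_at were 7.34 and 7.05 at E9.5, 8.35 and 8.15 at E10.5, and 8.20 and 8.33 at E11.5. They were 7.99 and 7.98 in E12.5 males, against 7.59 and 7.86 in E12.5 females, and 6.87 and 7.47 in E13.5 males, against 7.07 and 7.42 in E13.5 females. The arrays at E10.5 and E11.5 were the highest, those at E13.5 of both sexes were among the lowest, and the sexes overlapped at E13.5. The difference of E13.5 from E12.5 males was −0.81 (limma, unadjusted p = 0.0073, adjusted p = 0.138), and that of E13.5 from E12.5 females −0.48 (limma, adjusted p = 0.41). The difference of E12.5 females from E11.5 was −0.54 (limma, adjusted p = 0.377), and that of E10.5 from E9.5 was 1.05 (limma, unadjusted p = 0.00118, adjusted p = 0.082). None of these passed, and the last had the opposite sign, −0.14, with the mean of the 5 probe sets of the gene. The other 4 probe sets followed 1426334_a_at loosely, with r between −0.15 and 0.48 over 14 arrays.

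Bbc3 encodes Puma, like Noxa a product of a p53-activated gene. On its single probe set, 1423315_at, it had 6.46 and 7.01 in E12.5 males, against 6.60 and 6.72 in E12.5 females, and 6.54 and 6.28 in E13.5 males, against 6.25 and 6.90 in E13.5 females. The sexes overlapped at both ages. In the unsexed groups it lay between 6.14 and 6.75, and it passed in none of the 9 comparisons. Over the same 12 arrays of E10.5 and later its correlation with Pmaip1 was 0.139, as a description. That of Bid with Pmaip1 was −0.860.

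The effector Bak1 was measured near the table median. On 1418991_at it had 5.40 and 4.99 in E12.5 males, against 5.54 and 5.15 in E12.5 females, and 5.31 and 5.46 in E13.5 males, against 5.25 and 5.40 in E13.5 females. The sexes overlapped at both ages. The highest array was 6.01, at E9.5, and the lowest 4.56, at E11.5. The other Bak1 probe set was dim on all 14 arrays.

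Of the pro-survival genes, Mcl1 was followed by 6 probe sets, of which 1448503_at had the highest mean. Its signals there were 11.59 and 11.33 in E12.5 males, against 11.66 and 11.35 in E12.5 females, and 11.48 and 11.14 in E13.5 males, against 11.13 and 11.00 in E13.5 females. The sexes overlapped at E12.5, and both male arrays lay just above both female arrays at E13.5. It had 11.81 and 11.71 at E9.5, 11.87 and 10.66 at E10.5, and 11.69 and 10.85 at E11.5. Replicate 1 was the higher array in all 7 groups. The other 5 probe sets did not follow this pattern, with r between −0.41 and 0.34 to 1448503_at over 14 arrays, and the E10.5 arrays, for example, had 9.85 and 10.54 on 1416880_at. At E13.5 against E12.5 males the difference was −0.15 on 1448503_at and −0.295 on 1416881_at. It was 0.64, 0.72, 0.77 and 0.78 on 1416880_at, 1437527_x_at, 1456243_x_at and 1456381_x_at (limma, unadjusted p from 0.0147 to 0.0341, adjusted p from 0.245 to 0.352). In females this step was −0.44 and −0.62, then 0.46, 0.4, 0.495 and 0.475, in the same order of probe sets. Mcl1 passed in none of the 9 comparisons.

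Bcl2l1, the Bcl-xL gene, had 7.90 and 8.23 in E12.5 males, against 8.22 and 8.40 in E12.5 females, and 7.71 and 8.48 in E13.5 males, against 7.93 and 8.32 in E13.5 females, on 1420888_at. The sexes overlapped at both ages. At E9.5 it had 9.31 and 8.24, at E10.5 8.33 and 7.19, and at E11.5 8.03 and 7.73. The difference of E10.5 from E9.5 was −1.01 (limma, adjusted p = 0.278), and without E10.5 replicate 1 it was −1.58 (limma, adjusted p = 0.039, with 0.039 to 0.893 over its alternatives). The other 3 probe sets of Bcl2l1 were dim on all 14 arrays, and with the mean of the 4 probe sets the sign turned to 0.13.

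Bcl2 itself was close to the table median. On 1422938_at it had 5.10 and 5.27 in E12.5 males, against 4.77 and 4.86 in E12.5 females, and 4.96 and 4.81 in E13.5 males, against 5.15 and 5.02 in E13.5 females. The male arrays were the higher ones at E12.5 and the lower ones at E13.5, and neither difference passed. In the unsexed groups the arrays spread from 3.75 to 5.28, both of them at E11.5. The other 4 probe sets were dim on 13 or 14 arrays each.

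**Figure D5:**
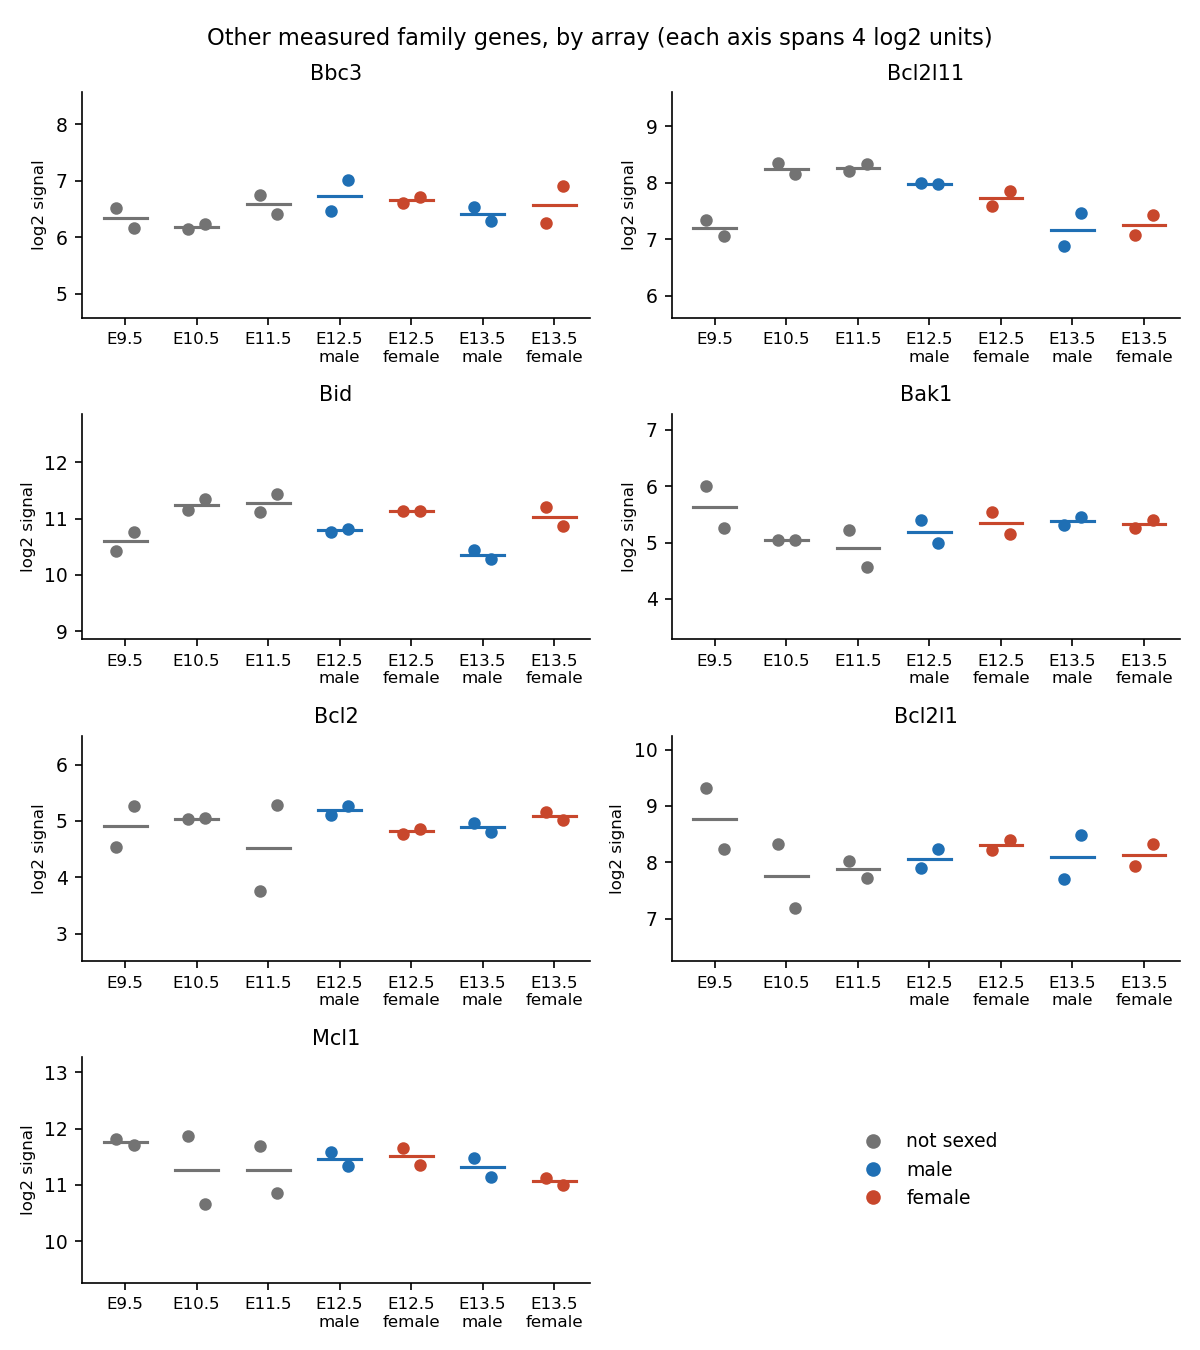
Log2 signals of the 7 other measured genes on each of the 14 arrays, by group, with 1 panel per gene and every vertical axis spanning 4 log2 units. Points are arrays and bars are group means, with males in blue, females in red and unsexed cells in grey. The E13.5 male arrays of Bid lie below the E13.5 female arrays, Bcl2l11 is lower at E13.5 than at E10.5 and E11.5, and the remaining panels show overlapping sexes at 1 or both ages or, for Bcl2, opposite orders at the 2 ages.

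Groups of 2 arrays that do not overlap were common in this experiment. At E12.5 the male and female arrays did not overlap for 3 of the 7 genes, Bid, Bcl2l11 and Bcl2, against 49.9% of all genes. At E13.5 they did not overlap for 3 of the 7, Bid, Bcl2 and Mcl1, against 49.5% of all genes. These shares of the 7 were close to the background.

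Between stages, the 7 genes, each read from its probe set with the highest mean, gave no call. At E12.5 males against E11.5, where 1.01% of all genes passed, the 7 differences ran from −0.48 to 0.67, with a median of 0.18 beside 0.01 over all genes. At E12.5 females against E11.5, where 1.86% passed, they ran from −0.54 to 0.45, with a median of 0.23 beside 0.05. At E13.5 against E12.5 males, where 2.09% passed, they ran from −0.81 to 0.19, with a median of −0.30 beside 0.05, and at E13.5 against E12.5 females, where 1.87% passed, from −0.48 to 0.27, with a median of −0.10 beside 0.03. At E11.5 against E10.5, where 0.0769% passed, they ran from −0.52 to 0.40. At E10.5 against E9.5, where 1.06% passed, they ran from −1.01 to 1.05. Counts at an unadjusted p under 0.05 (limma) were 1, 0, 2, 0, 0 and 3 of the 7 in these 6 comparisons, in the order given, beside 9.37%, 13.4%, 14.1%, 15.0%, 7.07% and 16.1% of all genes. The members that reached it were Bid at E12.5 males against E11.5 (−0.48, adjusted p = 0.372), Bid (−0.44, adjusted p = 0.301) and Bcl2l11 at E13.5 against E12.5 males, and Bid, Bcl2l11 and Bcl2l1 at E10.5 against E9.5, with adjusted p from limma.

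The wider pathway was read from lists of genes. Pmaip1 is left out of their counts between the sexes, since it was chosen by that difference. Over all genes, 2.39% passed between the sexes at E12.5 and 10.2% at E13.5 (limma). At an unadjusted p under 0.05 the shares were 12.8% and 22.3%. The counts of every list below stand beside these shares. Of the other 7 BH3-only genes, 0 passed between the sexes at E12.5, and Bid was the one that passed at E13.5 (limma, with 2 of the 7 at an unadjusted p under 0.05 at each age). The median male minus female difference of these 7 was −0.20 at E12.5 and −0.26 at E13.5, beside −0.04 and −0.02 over all genes. None of 2 measured effectors, 5 measured pro-survival genes and 5 measured Bcl2-related genes passed between the sexes (limma, with 2 of the pro-survival genes at an unadjusted p under 0.05 at E13.5 and otherwise 0). Bax was not among the measured effectors.

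The list of p53 and its regulators also held the related genes Trp63 and Trp73, and Trp53 itself was not measured. Among its 8 measured genes, 0 passed between the sexes at either age (limma, with 0 at an unadjusted p under 0.05 at E12.5 and 1 at E13.5). Of 22 measured p53 target genes other than Pmaip1, 0 passed at E12.5 (limma, with 4 of the 22 at an unadjusted p under 0.05). At E13.5 Tigar and Perp passed, 9.09% of the 22 beside 10.2% of all genes, so the share was near the background. Tigar, which lowers glycolytic flux and protects from oxidative damage, had 10.58 and 10.49 in E13.5 males, against 9.80 and 9.78 in E13.5 females (log2 difference 0.74, limma, adjusted p = 0.0152). Perp, a p53 target of cell junctions, had 6.65 and 6.80 in E13.5 males, against 8.46 and 8.32 in E13.5 females, a log2 difference of −1.67 (limma, adjusted p = 0.00186). With the mean of its probe sets the Tigar difference was 0.10. Its call was lost without any single E13.5 array and kept in 7 of 14 alternatives. The Perp call was kept without any single array. Without both arrays of high Gapdh difference neither passed (adjusted p = 0.172 for Tigar and 0.0609 for Perp, by limma). Perp was also lower in E12.5 males than at E11.5, with a log2 difference of −1.27 (limma, adjusted p = 0.0437), a call lost without either E11.5 array or E12.5 male replicate 2 and kept in 4 of 13 alternatives. At E10.5 against E9.5, Ccng1, a cyclin gene activated by p53, was higher by 1.78 (limma, adjusted p = 0.00475) and Tigar by 1.14 (limma, adjusted p = 0.00869). Both calls were lost with the mean of the gene's probe sets and with the compared arrays only, and that of Tigar also without E9.5 replicate 1 or E10.5 replicate 2.

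Downstream of the mitochondria, 16 of 18 listed genes of the apoptosome, caspases and their inhibitors were measured. Of the 16, 6.25% passed between the sexes at E12.5 and 12.5% at E13.5, beside 2.39% and 10.2% of all genes. Htra2, a mitochondrial protease that removes caspase inhibitors once released, had 8.07 and 8.07 in E12.5 males, against 6.87 and 6.70 in E12.5 females, and 7.87 and 7.61 in E13.5 males, against 6.47 and 6.28 in E13.5 females. The male arrays were higher at both ages, by 1.28 (limma, adjusted p = 0.0149) and by 1.36 (limma, adjusted p = 0.00319). Casp6, an executioner caspase, had 8.87 and 8.83 in E13.5 males, against 10.49 and 10.35 in E13.5 females, a log2 difference of −1.57 (limma, adjusted p = 0.00226). It was also higher in E12.5 females than at E11.5, by 1.48 (limma, adjusted p = 0.016). That call was lost without either E12.5 female array or E11.5 replicate 2, and kept in 7 of 13 alternatives. The E12.5 call of Htra2 was lost without any single E12.5 array. The E13.5 call of Casp6 was lost with the mean of its probe sets (−0.78, adjusted p = 0.226), and without both arrays of high Gapdh difference Htra2 and Casp6 had adjusted p = 0.0796 and 0.0809 at E13.5, all by limma.

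Of 14 genes of the integrated stress response, a route that can also activate the Noxa gene, 0 passed at E12.5 (limma, with 4 at an unadjusted p under 0.05). At E13.5, 2 of the 14 were lower in males, 14.3% beside 10.2% of all genes, a share near the background. Asns, asparagine synthetase, had 11.60 and 11.15 in males, against 12.49 and 12.03 in females (log2 difference −0.89, limma, adjusted p = 0.0186). Eif2ak4, the kinase that senses uncharged tRNA, had 7.35 and 7.21 in males, against 8.20 and 7.96 in females (log2 difference −0.80, limma, adjusted p = 0.0348). Over 14 alternatives the Asns call was kept in 9 and the Eif2ak4 call in 5. Among others, the Asns call was lost without female replicate 1 or male replicate 2. The Eif2ak4 call was lost without any single E13.5 array, and both were lost without the arrays of high Gapdh difference. Of 5 genes for the turnover of Mcl1 protein, Usp9x, which removes ubiquitin from Mcl1, was lower in males at E12.5, with 10.46 and 10.64 against 11.72 and 11.62 in females (log2 difference −1.12, limma, adjusted p = 0.0371). That call was kept in 5 of 13 alternatives. Among others, it was lost without any single E12.5 array and with the mean of its probe sets (−0.74, limma, adjusted p = 0.118). None of the 5 genes passed at E13.5 (limma, with 3 at an unadjusted p under 0.05).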

How the data were processed

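RNA of germ cells was measured on Affymetrix arrays. The deposited table held signals of probe sets on the log2 scale, which the authors had normalized jointly over all 14 arrays, per the series' design text. The software and the steps before normalization are not stated in the labels. The values ran from 0 to 14.04, with 1.54% to 1.83% of each array at 0. The platform annotation gave 1 symbol to 34958 probe sets, several to 932 and none to 9211. Probe sets with 1 symbol were used, and a gene with several was read from the one whose mean over the fitted arrays was highest.

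A linear model with a mean for each group was fitted by limma 3.58.1 (R 4.3.3), and eBayes moderated the variances along a trend in intensity. From the 12 arrays of E10.5 and later came 8 comparisons (6 residual degrees of freedom), and from the 14 together came that of E10.5 with E9.5 (7 residual degrees of freedom). Two-sided p-values were adjusted over all 18194 genes of a comparison by the Benjamini-Hochberg method, with 0.05 as the threshold for passing. On simulated data for E13.5 males against females with 18194 genes, the fit recovered 8% of 50 changes of 0.7 on the log2 scale, 34% at 1, 94% at 2 and 100% at 4, with 6 false among 124 calls. The changed genes were drawn from those above the median level. The real comparison had 1854 passing genes, so the adjustment was stricter in the simulation and its shares do not carry over to the data.

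Pmaip1 was left out of counts of calls among members and lists in comparisons with E12.5 or E13.5 males. The members and lists were chosen with earlier results of these data known. Named genes were all members, up to 4 passing genes of each list per comparison, and the 5 genes correlated best with Pmaip1 over the 12 arrays among those whose group means spanned at least 2 and reached above the table median. Genes of the marker lists are named as checks. Alternatives were quantile normalization, median centring, leaving out dim genes, a floor at the 25th percentile (3.12), the mean of all probe sets, every probe set tested, no intensity trend, the compared arrays only, the replicate number as a block, and leaving out each compared array. A fit without both arrays whose Gapdh difference exceeded 3 was added after seeing the data, and it left no replicate of either sex at E13.5. Whether the replicate numbers pair the arrays was not settled. Over 15 pairs of groups the correlations of deviations ran from −0.189 to 0.275, and 2 were above 0.1. In every group from E10.5 to E13.5 the Gapdh difference was higher on replicate 2 than on replicate 1.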

Additional observations from a re-analysis of the deposited data

Results flagged for a closer look

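In 2 genes the E12.5 and E13.5 arrays did not overlap in either sex, and the step had opposite signs in males and females. The share of all genes with this pattern was not computed. For Pmaip1 the male step was 1.48 on the log2 scale and the female step −0.69. The difference between these steps was not tested, since Pmaip1 was chosen by its rise in males. It was 2.17 on the log2 scale, 1.54 without both arrays of high Gapdh difference, and 2.64 and 1.70 without E13.5 female replicate 1 and replicate 2. For Bcl2, which lay close to the table median, the male step was −0.30 and the female step 0.27. The difference between the steps, −0.57, did not pass (limma, adjusted p = 0.963).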

How the results depend on the processing

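Without the intensity trend the counts of passing genes (limma) were 120 for E10.5 against E9.5 (193 as reported), 125 for E12.5 females and 79 for E12.5 males against E11.5 (338 and 183), 279 for E12.5 males against females (435), 165 and 211 for the later step in females and males (341 and 381), and 0 for the change of the sex difference (2). With the compared arrays only they were 0 for E10.5 against E9.5 (1129 at an unadjusted p under 0.05), 0 for E11.5 against E10.5 (741 unadjusted), 41 and 1 for E12.5 females and males against E11.5, 762 for E12.5 males against females, 171 for the later step in males and 0 for the change (1841 unadjusted). For E11.5 against E10.5 (14) quantile normalization gave 29, median centring 22, leaving out dim genes 9 and the floor 32. With the mean of all probe sets E12.5 females and males against E11.5 gave 224 and 110, the later step in females 225 and the change 0. Testing every probe set gave 215 for that step and 0 for the change, and the floor gave 46 for the change. Without the arrays of high Gapdh difference the E13.5 sex difference gave 409 (1854), the later step 13 in males and 15 in females, and the change 0 (1016 unadjusted). Leaving out 1 array gave 51 to 1927 for E10.5 against E9.5, 1 to 39 for E11.5 against E10.5, 23 to 169 and 2 to 101 for E12.5 females and males against E11.5, 93 to 147 for the sexes at E12.5, 912 to 1046 at E13.5, 0 to 89 and 16 to 167 for the later step in females and males (0 without E12.5 female replicate 2, with 1722 unadjusted), and 0 for the change throughout (993 to 1306 unadjusted). With the replicate block the count was 0 for the change (1422 unadjusted) and within 1.5 times of the reported one elsewhere.

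Of the 7 members other than Pmaip1, the 1 that passed at E13.5 between the sexes, Bid, became 0 with median centring, the mean of probe sets, every probe set, no trend, the compared arrays only or the high Gapdh arrays left out, and 0 to 1 with 1 array left out. For E10.5 against E9.5 the count of 0 members was 0 to 2 with 1 array left out. Signs turned in 4 cases, all at E10.5 against E9.5: Bcl2l1 (0.13) and Bcl2l11 (−0.14) with the mean of probe sets, and Pmaip1 without E9.5 replicate 2 (−0.71) and without E10.5 replicate 1 (−0.07), within −0.71 to 1.33 over its single arrays left out. Pmaip1 in E13.5 males against females moved to 5.39, and its change of the sex difference to 1.54, without the high Gapdh arrays. Of 53 member differences given only as ranges, 38 changed sign under at least 1 setting. The causes of these shifts were not tested.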
